A study of Mus musculus with 75 samples.

Results

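The genes described here are 36 members of glycolysis and of the response to low oxygen, taken by symbol from a list of glycolytic enzymes and of known targets of the hypoxia-inducible factors (HIFs). They are 36 of the 52535 entries in each of the tables for receptor knockout and receptor overexpression, and 36 of the 52636 entries in the table for the Cyp26 enhancers. Of these, 35 passed the filter on low counts in the tables for knockout and overexpression, where Adm did not, and 36 passed it in the enhancer table. RNA was sequenced from 23 cultures of E14, a mouse embryonic stem cell line grown in serum with LIF and the 2 inhibitors of 2i, all of which had lost LIF and 2i and received 2 µM retinoic acid (RA) for 24 h before harvest. The knockout table held WT cells (WT-RARX in the labels) beside knockouts of the RA receptor Rara (Rara-KO), of its partner Rxra (Rxra-KO) and of both (RARX-DKO), with n = 2 each. The overexpression table compared the vector control V-OE with Rara-OE and Rxra-OE cells (n = 2 each). The enhancer table compared WT cells (WT-Cyp26) with cells lacking the enhancer Cyp26-E1 (Cyp26-E1-KO) and with Cyp26-E2 cells (n = 3 each), near the gene of the RA-degrading enzyme Cyp26a1. The titles of the Cyp26-E2 samples lack the word knockout and were read as that deletion, and the columns of both enhancer groups were matched through short codes, so this match is unsure. The promoter of the overexpression vectors, the number of clones behind each line, and whether replicates were separate cultures are not given in the sources used here, so p-values measure only the spread between these libraries. All groups had RA, so no value here shows the effect of RA itself.

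Glycolysis turns glucose into pyruvate in the cytoplasm and, through lactate dehydrogenase, into lactate that leaves the cell. When oxygen is low, prolyl hydroxylases of the Egln family stop marking HIF proteins for destruction, and HIF with its partner Arnt then binds a short core, ACGTG or GCGTG, near glycolytic and other target genes. Embryonic stem cells run glycolysis at a high rate even with oxygen, and glycolytic activity changes as they leave pluripotency. RA works through heterodimers of an RA receptor and a retinoid X receptor, and Cyp26 enzymes limit the signal by breaking RA down.

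Most members had the HIF core in their promoter. The windows of 250 bases upstream of RefSeq start sites (GRCm38.p6) were searched on both strands for ACGTG and GCGTG. The reverse complements are CACGT and CACGC, and a palindromic CACGTG counts on both strands. For members with several start sites, the window with the fewest bases in an annotated exon was taken, and then the one nearest the gene's 5′ end. Of the 33 members with a promoter in the table, 26 (78.8%) held a core, and of all their 51 start sites 39 (76.5%), against 12679 of 32851 start sites of all genes (38.6%). ACGTG was present in 45.1% of the members' start sites and 16.6% of all, and GCGTG in 52.9% and 28.2%. Members' promoters also held more CG dinucleotides, with a median of 14 over 51 start sites against 6 over all promoters, and both cores contain that dinucleotide. Members with no core in the window taken were Eno2, Gpi1, Hk1, Kdm3a, Mxi1, Tpi1 and Vegfa, of which Hk1, Kdm3a, Mxi1 and Vegfa held 1 or more cores at another start site. A match is a description of letters and does not show binding. The sequences below stand for members that moved in different ways: Pfkfb3 and P4ha2 were higher with receptor overexpression, Ldha was lower in both overexpression groups and both enhancer groups, and Bnip3 and Pdk1 were higher in Rxra-KO and lower with overexpression. Each is the longest stretch of the window outside annotated exons, from 5′ to 3′ on the gene's strand, with the cores on either strand in capitals.
Pfkfb3, chr2:11502102-11502340, minus strand: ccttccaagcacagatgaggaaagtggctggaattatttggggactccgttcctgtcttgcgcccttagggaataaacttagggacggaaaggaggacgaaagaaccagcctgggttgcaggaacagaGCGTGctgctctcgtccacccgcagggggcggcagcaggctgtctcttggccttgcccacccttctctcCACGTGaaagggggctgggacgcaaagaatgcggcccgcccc
P4ha2, chr11:54100674-54100923, plus strand: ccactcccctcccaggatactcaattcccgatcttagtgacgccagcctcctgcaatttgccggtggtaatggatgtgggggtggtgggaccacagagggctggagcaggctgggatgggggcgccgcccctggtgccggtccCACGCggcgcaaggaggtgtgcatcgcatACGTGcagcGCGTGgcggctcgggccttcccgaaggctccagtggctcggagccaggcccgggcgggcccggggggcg
Ldha, chr7:46845554-46845803, plus strand: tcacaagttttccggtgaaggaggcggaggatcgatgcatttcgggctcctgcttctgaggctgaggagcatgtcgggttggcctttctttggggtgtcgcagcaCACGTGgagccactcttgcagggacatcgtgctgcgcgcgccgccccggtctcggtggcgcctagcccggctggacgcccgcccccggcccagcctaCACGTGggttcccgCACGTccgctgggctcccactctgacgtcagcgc
Bnip3, chr7:138909520-138909756, minus strand: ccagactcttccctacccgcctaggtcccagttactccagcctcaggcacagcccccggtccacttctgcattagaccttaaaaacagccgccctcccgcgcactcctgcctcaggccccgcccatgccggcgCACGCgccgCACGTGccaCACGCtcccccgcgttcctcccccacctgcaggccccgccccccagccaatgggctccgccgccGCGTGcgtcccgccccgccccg
Pdk1, chr2:71872974-71873223, plus strand: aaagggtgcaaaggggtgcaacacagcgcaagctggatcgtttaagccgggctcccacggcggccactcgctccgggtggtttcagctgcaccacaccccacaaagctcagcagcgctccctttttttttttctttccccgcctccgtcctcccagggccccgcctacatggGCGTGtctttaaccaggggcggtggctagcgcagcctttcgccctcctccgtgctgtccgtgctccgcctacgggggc
The Ldha and Bnip3 windows each held 5 matches, those of Pfkfb3 and P4ha2 held 3 each, and that of Pdk1 held 1. Genes that were higher and genes that were lower with receptor overexpression both occur among them.

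Depth was 7408691 to 13052102 counts per library in the knockout table, 7835519 to 11453063 in the overexpression table and 28397794 to 33601996 in the enhancer table. The targeted genes followed the labels in part. Rara was lower in Rara-KO (log2 fold change -4.42) and in RARX-DKO (-4.11), and Rxra was lower in Rxra-KO (-1.29, adjusted p = 0.0264), while Rxra in RARX-DKO did not pass (-1.04, adjusted p = 0.0654). Rara was higher in Rara-OE (1.05) and Rxra in Rxra-OE (2.20). Cyp26a1 was lower in Cyp26-E1-KO (-2.93, SE 0.18) and not in Cyp26-E2 (0.01, SE 0.16). The library of Cyp26-E1-KO replicate 2 stood apart from the other libraries of its group, with a chi-square per degree of freedom of 41.9 to 47.9 against 5.4 to 9.35 for other pairs of the enhancer table, so results that rest on it are also given without it. Markers of embryonic stem cells were present in every group, and of 10 fibroblast markers, 3 to 5 in each table had at most 10 counts in every library, among them Col3a1, Lum and Postn, while the others were above that and the list summed to 111 to 461 CPM over all libraries.

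In the control cells the enzymes of the main pathway and the glucose importers had the highest levels. Per kilobase of exon, the same 8 members ranked highest in each of the control groups: Pkm, Ldha, Aldoa, Pgam1, Eno1, Pgk1, Slc2a1 and Slc2a3. In the WT cells of the enhancer table, Pkm (pyruvate kinase) stood at 531 CPM per kb (CPM are counts scaled to a common library size), Ldha (lactate dehydrogenase A) at 401, and Aldoa (aldolase A) at 384. In V-OE the order was led by Aldoa at 465 CPM per kb, Pkm at 371 and Pgam1 (phosphoglycerate mutase) at 329. Adm, which encodes the vessel-dilating peptide adrenomedullin, was lowest in each control, at 0.0759, 0.25 and 0.431 CPM per kb in the WT cells of the knockout table, in V-OE and in the WT cells of the enhancer table. The tables were not normalized together, so these levels are ranked only within a table. Gapdh was low for a housekeeping gene, with 24.9 to 182 CPM over all libraries, and its values scattered within groups. It has many near-identical processed copies in the genome, and Pgk1, Ldha, Eno1, Pgam1 and Tpi1 have copies too, and how the authors' counting divided such reads is not given, so these members are uncertain. Strand is not given either, and Ankrd37, Higd1a and Bnip3 share 26.4%, 22.5% and 22.3% of their exonic bases with genes on the opposite strand. Pkm shares 15.3% with another gene model, Gpi1 11.5% and Pfkm 10.7%.

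**Figure D1:**
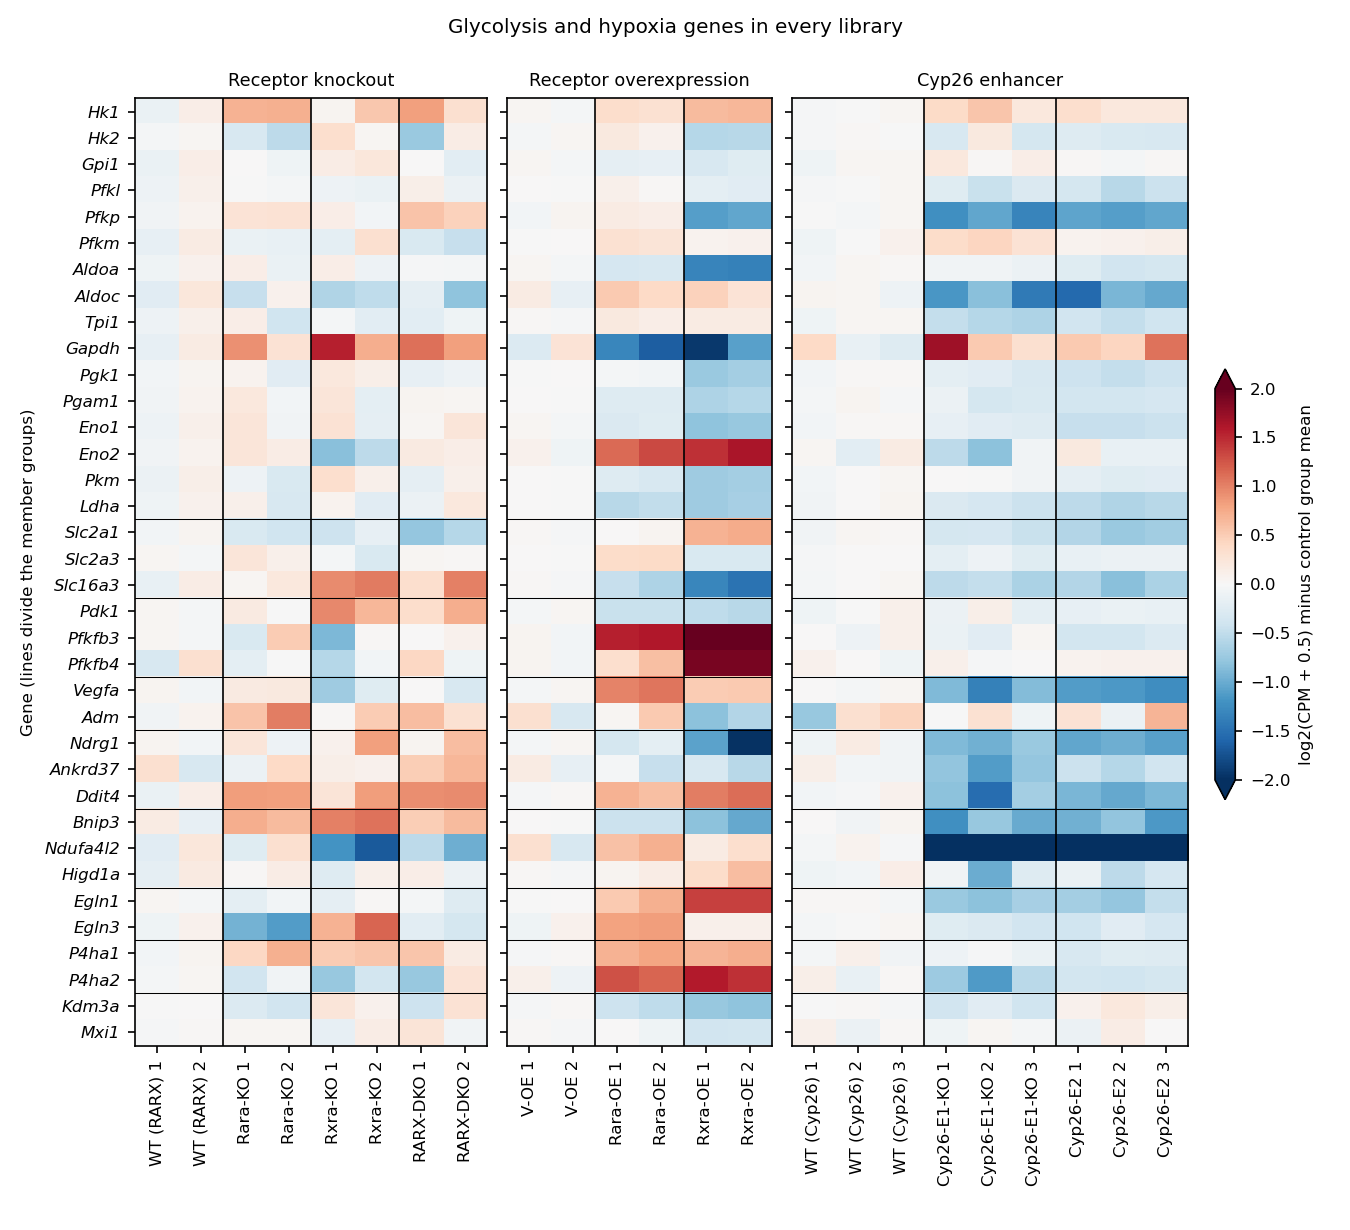
Heat map of the 36 members (rows, grouped by role) in the 23 libraries (columns, by table and group), as log2(CPM + 0.5) minus the mean of the control group of that table; colours saturate at 2 in either direction. The Cyp26-E1-KO and Cyp26-E2 columns are mostly blue, the overexpression columns hold both colours, and the knockout columns are pale for most members.

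With overexpression of Rxra, members moved in both directions. Of 35 members tested, 12 rose and 17 fell in Rxra-OE against V-OE (median log2 fold change -0.28), where 30.9% of all tested genes rose and 29.3% fell, with a median near 0.00. The rises were thus near the share over all genes, and the falls above it. Of the 16 glycolytic enzymes, 10 fell and 3 rose (median -0.58), and of the other members, 9 rose and 7 fell (Slc2a3, Slc16a3, Pdk1, Bnip3, Kdm3a, Mxi1 and Ndrg1). Set against the V-OE mean, the median over the enzymes was -0.60 and -0.56 in the Rxra-OE libraries, and that over the other members 0.17 and 0.36. Members took 1.12 to 1.13% of all counts in V-OE and 0.859 to 0.876% in Rxra-OE. Tests here and below are edgeR's quasi-likelihood test with Benjamini-Hochberg adjustment over all genes tested, and a gene is said to rise or fall where the adjusted p was under 0.05.

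Aldoa, which splits the 6-carbon sugar, fell most among the enzymes. Its level was 1391 and 1315 CPM in V-OE, 1066 and 1083 in Rara-OE and 541 and 530.5 in Rxra-OE (Rxra-OE against V-OE -1.34, SE 0.04, adjusted p = 5.89e-36). The groups did not overlap, and Rxra-OE was lowest. Pfkp, the platelet isoform of phosphofructokinase, the committed step, was at 203 and 217 CPM in V-OE and 97.7 and 102 in Rxra-OE (-1.08, SE 0.05, adjusted p = 9.98e-25). In Rara-OE it stood at 236 and 230.4 CPM, above the control libraries. Eno1 (enolase 1) was at 1807 and 1727 CPM in V-OE against 1011 and 1046 in Rxra-OE (-0.78, SE 0.04, adjusted p = 2.76e-26). Pgk1 (phosphoglycerate kinase) went from 512 and 522 CPM to 308 and 323 (-0.71, SE 0.04, adjusted p = 1.34e-21). Pkm went from 1859 and 1854 CPM to 1128 and 1159 (-0.70, SE 0.04, adjusted p = 1.46e-24). These enzymes of the payoff phase all had Rxra-OE libraries below both V-OE libraries. Ldha, which makes lactate, went from 895 and 887 CPM to 547 and 563 (-0.68, SE 0.04), Pgam1 fell by 0.60, Hk2 (hexokinase 2, the inducible isoform) by 0.57, Gpi1 (glucose phosphate isomerase) by 0.28 and Pfkl (liver phosphofructokinase) by 0.21 on the log2 scale. Genes within 10 Mb of Gpi1 and Pfkl had medians of -0.14 and -0.11, which leaves -0.14 and -0.10. The enzymes that rose were Eno2, Hk1 and Tpi1. Eno2, the neuronal enolase, rose from 16.5 and 14.5 CPM to 43.6 and 49.2 (1.59, SE 0.11). Hk1 rose from 58.6 and 55.9 CPM to 88.8 and 90.5 (0.65, SE 0.07), and Tpi1 (triose phosphate isomerase) by 0.17. Gapdh had a log2 fold change of -1.46 with an adjusted p of 0.0503 and did not pass.

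The transporters split in the same comparison. Slc2a1, the widely expressed glucose importer GLUT1, rose from 434 and 421 CPM in V-OE to 689 and 716 in Rxra-OE (0.72, SE 0.04, adjusted p = 2.15e-22), while Rara-OE, at 429 and 445, overlapped the control. Slc2a3, the high-affinity glucose importer of stem cells and neurons, was at 1904 and 1903 CPM in V-OE, 2467 and 2488 in Rara-OE and 1543 and 1540.2 in Rxra-OE. It thus rose in Rara-OE (0.38, SE 0.03) and fell in Rxra-OE (-0.30, SE 0.03). Slc16a3, the exporter of lactate, fell in both, from 50.7 and 48.9 CPM to 36 and 32.4 in Rara-OE (-0.54, SE 0.10) and 19.9 and 17.6 in Rxra-OE (-1.42, SE 0.10, adjusted p = 9.56e-18). No group overlapped another for this gene.

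Among the enzymes that switch glycolytic flux was the largest change of the list in this table, that of Pfkfb3. Pfkfb3, which makes and breaks the sugar phosphate that activates phosphofructokinase and favours its synthesis, was at 11.5 and 10.7 CPM in V-OE, 33.5 and 34.6 in Rara-OE and 99.1 and 95.9 in Rxra-OE. It rose by 1.62 on the log2 scale (SE 0.11, adjusted p = 2.25e-17) in Rara-OE and by 3.14 (SE 0.10, adjusted p = 8.78e-34) in Rxra-OE, which is 8.8-fold. The groups lay apart in the order V-OE, Rara-OE, Rxra-OE, and the step between the receptors was itself past the test (1.52, SE 0.08, adjusted p = 7.17e-23). Its relative Pfkfb4 was at 7.01 and 6.42 CPM, 8.64 and 10.4, and 26.3 and 26.5 in the same order (Rxra-OE against V-OE 1.98, SE 0.16, adjusted p = 8.31e-16). Pdk1, a kinase of pyruvate dehydrogenase, went the other way, from 67.2 and 70.8 CPM to 50.3 and 50.5 in Rara-OE (-0.45, SE 0.08) and 48.1 and 46.7 in Rxra-OE (-0.54, SE 0.08). Both overexpression groups lay below the control and did not differ from each other past the test.

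Among the other HIF targets, Egln1, the main oxygen sensor of HIF, rose from 16.5 and 16.7 CPM in V-OE to 24.1 and 27.4 in Rara-OE (0.62, SE 0.12) and 43.7 and 43.4 in Rxra-OE (1.39, SE 0.11, adjusted p = 2.67e-16). P4ha2 and P4ha1, the collagen prolyl hydroxylases, both rose in both groups: P4ha2 was at 12 and 10.4 CPM in V-OE, 27.8 and 25.6 in Rara-OE and 34.5 and 31.7 in Rxra-OE (1.27 and 1.57), and P4ha1 was at 34.7 and 35.5, 56.9 and 61.1, and 56.6 and 58.2 (0.75 and 0.71). Ddit4, an inhibitor of mTORC1 that responds to stress, was at 55.4 and 57.1 CPM in V-OE, 91 and 85.9 in Rara-OE and 115 and 122 in Rxra-OE (0.65 and 1.08). For these genes each overexpression library lay above both control libraries. Vegfa, the vessel growth factor, was at 108 and 115 CPM in V-OE, 223 and 235 in Rara-OE and 159.5 and 160.1 in Rxra-OE, so that it rose in both and was highest in Rara-OE (1.04, SE 0.05, and 0.52, SE 0.05). Egln3, an oxygen sensor that is itself a HIF target, rose in Rara-OE, from 5.31 and 6.02 CPM to 10.3 and 10.5 (0.87, SE 0.21, adjusted p = 0.000812), and was at 6.13 and 6.09 in Rxra-OE (0.10). Higd1a, a mitochondrial survival protein, rose in Rxra-OE (0.51, SE 0.08).

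Other HIF targets fell in Rxra-OE. Ndrg1, a stress-responsive gene of differentiation, was at 6.88 and 7.34 CPM in V-OE and 3.12 and 1.44 in Rxra-OE (-1.70, SE 0.29, adjusted p = 1.05e-06). Bnip3, a mitophagy receptor, was at 39.9 and 39.7 CPM in V-OE, 29.3 and 29.5 in Rara-OE and 22.2 and 19.4 in Rxra-OE (-0.44 and -0.94). Kdm3a, a histone H3 lysine 9 demethylase, was at 202 and 209.6 CPM, 154 and 145, and 122 and 118 (-0.46 and -0.78). Bnip3 and Kdm3a fell in both groups with the lowest libraries in Rxra-OE, and Mxi1, a Myc antagonist, fell by 0.38 in Rxra-OE. Hif1a itself, the oxygen-regulated HIF subunit, was at 134 and 142 CPM in V-OE, 123 and 128 in Rara-OE and 95.7 and 86.7 in Rxra-OE, where its mRNA fell (-0.60, SE 0.06, adjusted p = 1.35e-12). The HIF protein, which oxygen controls, was not measured.

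Overexpression of Rara moved members in both directions. Of the 35 members, 16 rose and 10 fell (median 0.11), where 14.7% of all genes rose and 13.9% fell. The enzymes divided evenly, with 6 higher and 6 lower (median 0.01). Those that fell were Ldha, from 895 and 887 CPM to 609.5 and 634 (-0.52, SE 0.04, adjusted p = 1.33e-16), Aldoa (-0.33), Pkm (-0.29), Eno1 (-0.26), Pgam1 (-0.25) and Gpi1 (-0.18), and those that rose were Eno2 (1.25, SE 0.12), Hk1 (0.33), Pfkm (0.29, the muscle phosphofructokinase), Tpi1 (0.17), Hk2 (0.15) and Pfkp (0.15). Several of the small rises did not pass with 1 library fewer, at folds in the same direction. Without V-OE replicate 1, Hk2 and Pfkp stood at 0.11 and 0.10 (adjusted p = 0.202 and 0.243), and without Rara-OE replicate 1 at 0.10 and 0.13 (0.264 and 0.115). The neighbours of Hk2 within 10 Mb had a median of 0.07, which leaves 0.08. Tpi1 stood at 0.14 both without V-OE replicate 2 (adjusted p = 0.0753) and without Rara-OE replicate 1 (0.0785). Pfkfb4 rose by 0.49 (adjusted p = 0.0394) and did not pass without V-OE replicate 1 (0.55, adjusted p = 0.0711), V-OE replicate 2 (0.43, 0.187) or Rara-OE replicate 2 (0.37, 0.26). Ndufa4l2, a HIF-induced subunit relative that lowers oxygen use by complex I, was at 6.88 and 4.28 CPM in V-OE and 8.44 and 9.23 in Rara-OE (0.68, SE 0.23, adjusted p = 0.0184), and did not pass without V-OE replicate 2 (0.36, adjusted p = 0.368) or Rara-OE replicate 2 (0.62, 0.0911). DESeq2 called 9 members higher and 11 lower in Rara-OE, against 16 and 10 by edgeR. It did not call Hk2, Pfkp, Pfkm, Tpi1, Pfkfb4, Egln3 or Ndufa4l2, and it called Gapdh lower. DESeq2 also called fewer of all genes, 15.5% in either direction, against 14.7% rising and 13.9% falling by edgeR.

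Against Rara-OE, Rxra-OE had 9 members higher and 19 lower (median -0.27), where 23.8% of all genes were higher and 23.4% lower. The members higher were thus near the share over all genes, and those lower above it. The enzymes counted 11 lower and 2 higher (median -0.24), with Pfkp (-1.22, SE 0.05), Aldoa (536 against 1075 CPM, adjusted p = 9.26e-30), Hk2 (-0.71, SE 0.05) and Pgk1 (-0.66, SE 0.04) in front. Outside the enzymes, Ndrg1 (-1.40, SE 0.30), Slc16a3 (-0.88, SE 0.11), Egln3 (-0.77, SE 0.20), Slc2a3 (-0.68, SE 0.03), Vegfa (-0.52, SE 0.05) and Bnip3 (-0.51, SE 0.11) were lower in Rxra-OE. Higher there were Pfkfb3, Pfkfb4 (1.48, SE 0.15), Egln1 (0.76, SE 0.10), Slc2a1 (0.69, SE 0.04), Ddit4 (0.42, SE 0.07) and Higd1a (0.40, SE 0.08). Eno2 (0.34), P4ha2 (0.30), Pfkm (-0.21) and Gpi1 (-0.10) also passed, but not with every library left out in turn. Eno2 did not pass without Rara-OE replicate 1 (adjusted p = 0.103) or Rxra-OE replicate 2 (0.147), and P4ha2 not without Rara-OE replicate 2 (0.165) or Rxra-OE replicate 1 (0.201). Gpi1 did not pass without Rara-OE replicate 1 (0.0725), Rara-OE replicate 2 (0.0931) or Rxra-OE replicate 1 (0.341), and its neighbours had a median of -0.10 as well. Pfkm did not pass without Rara-OE replicate 1 (0.124), Rxra-OE replicate 1 (0.0736) or Rxra-OE replicate 2 (0.0796). DESeq2 called neither these 4 nor Egln3 and Mxi1. It called 27.9% of all genes in either direction, against 23.8% higher and 23.4% lower by edgeR.

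Cell state markers moved with these results. The summed level of 10 markers of embryonic stem cells was 8335 to 8568 CPM in V-OE, 6989 to 7022 in Rara-OE and 2547 to 2589 in Rxra-OE, where 8 of 10 were lower. Each of 11 markers of extraembryonic endoderm was higher in both groups, with sums of 294 to 298 CPM in V-OE, 1032 to 1040.1 in Rara-OE and 1451 to 1455 in Rxra-OE. The sum of 7 trophectoderm markers was 96.8 to 97.6, 566 to 614 and 644 to 673 CPM in the same order, and that of 10 proliferation genes 3363 to 3377, 2923 to 2924 and 2748 to 2751. No marker of the embryonic stem cell, extraembryonic endoderm or trophectoderm lists was at or under 10 counts in every library of this table. Fibroblast markers summed to 145 to 151, 275 to 277 and 452 to 461 CPM, with Col3a1, Dcn, Lum and Postn at or under 10 counts in every library. Neuroectoderm markers summed to 70 to 80.1, 36.4 to 40.9 and 23.4 to 24.7 CPM, with Pax6 and Zic1 at or under 10 counts in every library. Of the handling signs, immediate early genes summed to 199 to 208, 189 to 189.7 and 109 to 120.1 CPM and heat shock genes to 7191 to 7235, 7499.5 to 7875 and 5019.9 to 5088, while mitochondrially encoded genes lay between 17486 and 19912 in all 3 groups. The part of these cells and signs in the changes of glycolysis and hypoxia genes was not tested. In bulk RNA, fewer cells of a type and less RNA per cell cannot be told apart.

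**Figure D2:**
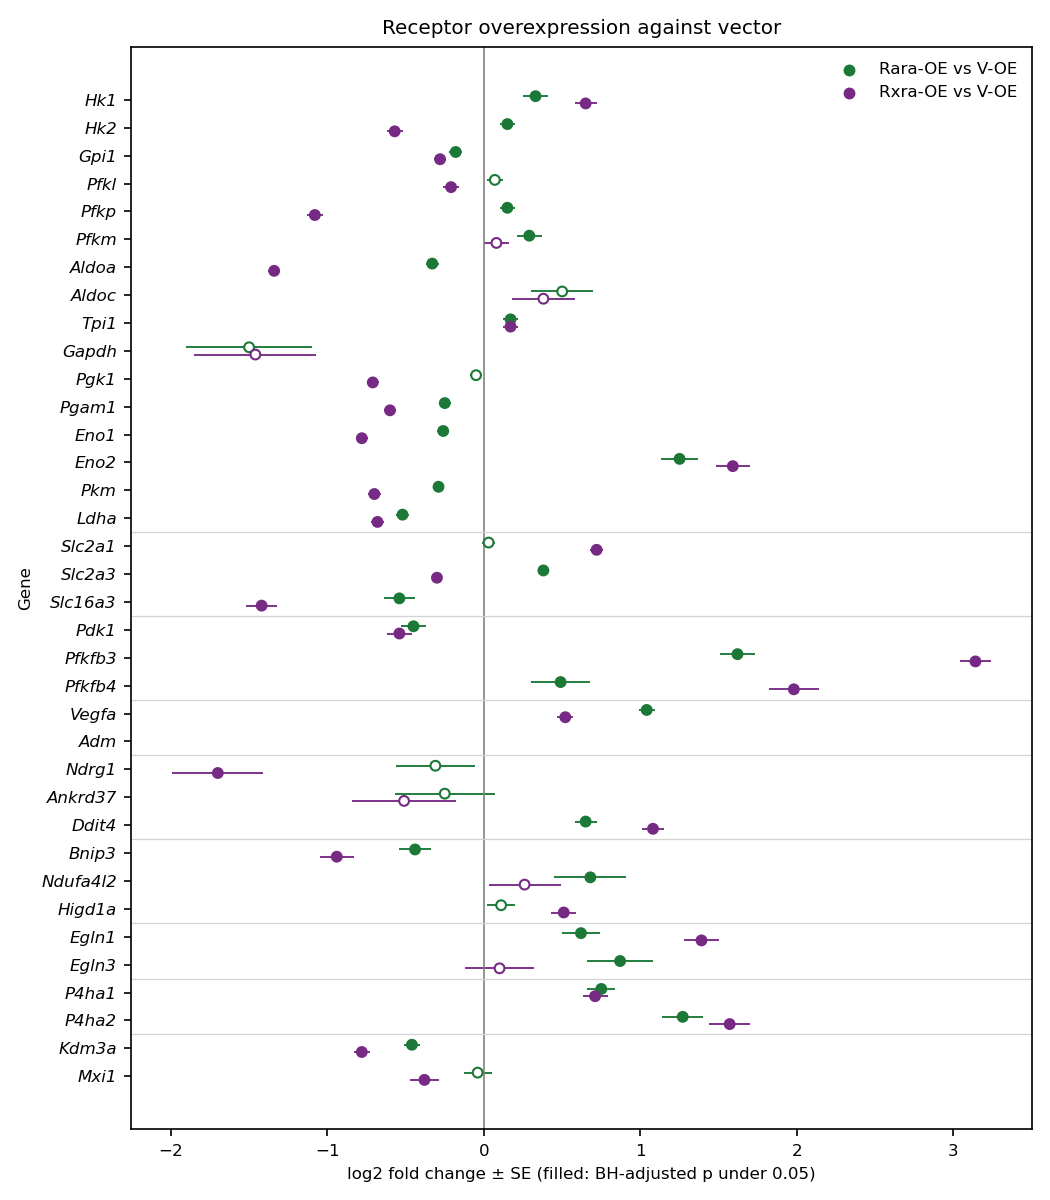
Log2 fold change with SE (x axis) of each member (y axis, grouped by role) in Rara-OE and Rxra-OE against V-OE; filled points passed the test. Pfkfb3 stands at 1.62 and 3.14, and most glycolytic enzymes of Rxra-OE lie below 0.

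In the enhancer table the list went down in both mutant groups. Of 36 members, 20 fell and 2 rose in Cyp26-E1-KO (median -0.31), where 12.1% of all genes fell and 13.1% rose. In Cyp26-E2, 21 fell and 0 rose (median -0.35), where 8.2% of all genes fell and 9.28% rose. DESeq2 called 0 higher in Cyp26-E2, and 1 member (Hk1, 0.26) had an unadjusted p under 0.05 with a positive change. Total scaling called 1 higher (Hk1), no filter on low counts 1, and a fit of only these groups 2 higher among 28 called. Of all genes, these settings called 17.4%, 10.6% and 31.6% in either direction. Both comparisons share the same WT libraries, so their likeness is not independent. The members' share of all counts was 1.35 to 1.4% in WT, 1.16 to 1.22% in Cyp26-E1-KO and 1.08 to 1.12% in Cyp26-E2. Against the WT mean, the median over the enzymes was -0.27 to -0.19 in the Cyp26-E1-KO libraries and -0.37 to -0.30 in those of Cyp26-E2, while that over all genes was within 0.01 of 0.

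Glycolytic enzymes fell at most steps from phosphofructokinase to lactate. Of 16, 8 fell and 2 rose in Cyp26-E1-KO, and 10 fell in Cyp26-E2. Pfkp was at 218, 214 and 226 CPM in WT, 93.7, 106 and 87.6 in Cyp26-E1-KO and 105, 102 and 106 in Cyp26-E2 (-1.19, SE 0.07, adjusted p = 9.24e-08, and -1.07, SE 0.07, adjusted p = 5.67e-07). Both mutants lay well under every WT library and overlapped each other. Aldoc, the brain aldolase, was at 9.17, 9.11 and 8.18 CPM in WT, 3.64, 4.7 and 2.99 in Cyp26-E1-KO and 2.67, 4.42 and 4.07 in Cyp26-E2 (-1.22, SE 0.20, and -1.25, SE 0.20). Tpi1 was at 308, 337 and 338 CPM in WT, 234, 221 and 213 in Cyp26-E1-KO and 249.9, 235 and 249 in Cyp26-E2 (-0.56 and -0.42, SE 0.07 each). At the lactate-forming end of the pathway, Ldha was at 1266, 1338 and 1376 CPM in WT, 1085, 1053 and 985 in Cyp26-E1-KO and 922, 877 and 899 in Cyp26-E2 (-0.35 and -0.56, SE 0.07 each). For Ldha the groups did not overlap, with Cyp26-E2 lowest. Pfkl (-0.32 and -0.44), Pgk1 (-0.25 and -0.43), Pgam1 (-0.26 and -0.35) and Eno1 (-0.22 and -0.45) also fell in both, and Aldoa (-0.32) and Pkm (-0.22) in Cyp26-E2. The enzymes that rose in Cyp26-E1-KO were Hk1, from 37.3 to 38.8 CPM in WT to 43.9 to 55.7 (0.39, SE 0.09, with a median of 0.15 over its 128 neighbours within 10 Mb and 0.24 after its subtraction), and Pfkm, from 58.1 to 65.2 CPM to 75.6 to 82.6 (0.37, SE 0.07). Gapdh had log2 fold changes of 0.96 and 0.69 and passed in neither.

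Some of the smaller falls did not pass with 1 library fewer, though their folds stayed close. In Cyp26-E1-KO, Eno1 and Pgam1 did not pass without WT replicate 2 (adjusted p = 0.105 and 0.0957), WT replicate 3 (0.101 and 0.0505) or Cyp26-E1-KO replicate 3 (0.0608 and 0.0559), and Pgk1 did not without WT replicate 2 (0.056) or WT replicate 3 (0.0557). Their log2 fold changes were then -0.20 to -0.19 for Eno1, -0.26 to -0.22 for Pgam1 and -0.23 for Pgk1. In Cyp26-E2, Pkm passed with no library left out and lost its call under each of the 6 omissions (log2 fold change -0.24 to -0.18, adjusted p 0.0548 to 0.158). Without Cyp26-E1-KO replicate 2, the library that stood apart, 26 members were called in Cyp26-E1-KO (23 lower and 3 higher, with 22 shared with the full fit), and Hk2, Slc2a3, Pdk1 and Gpi1 were added, while 32.1% of all genes were called.

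Glucose uptake and lactate export genes fell as well. Slc2a1 was at 895, 968 and 954 CPM in WT, 736, 743 and 691 in Cyp26-E1-KO and 626, 559.6 and 578 in Cyp26-E2 (-0.38 and -0.68, SE 0.07 each, adjusted p = 0.000984 and 1.71e-05). The order WT, Cyp26-E1-KO, Cyp26-E2 held with no overlap. Slc16a3 was at 106, 109 and 112 CPM in WT, 75.6, 77.9 and 70.1 in Cyp26-E1-KO and 72.8, 60.9 and 70.3 in Cyp26-E2 (-0.54 and -0.68, SE 0.08 each). Slc2a3 did not pass in either (-0.18 and -0.13). Of the flux switches, Pfkfb3 fell by 0.34 in Cyp26-E2 (adjusted p = 0.0213) and stood at -0.10 in Cyp26-E1-KO, while Pdk1 and Pfkfb4 passed in neither. The Pfkfb3 call was lost without WT replicate 1 (0.0688), WT replicate 3 (0.121), Cyp26-E2 replicate 1 (0.0802) or Cyp26-E2 replicate 2 (0.0753).

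The largest change of the list in these cells was that of Ndufa4l2. It was at 11.5, 12.5 and 11.6 CPM in WT (349 to 375 counts), 0.325, 0.0706 and 0.563 in Cyp26-E1-KO (2 to 16 counts) and 0.931, 1.86 and 1.7 in Cyp26-E2 (30 to 58 counts). The log2 fold changes were -5.20 (SE 0.37, adjusted p = 4.22e-07) and -2.99 (SE 0.30, adjusted p = 1.87e-05), or 36.64-fold and 7.92-fold lower. The groups did not overlap, and Cyp26-E2 lay above Cyp26-E1-KO (2.21, SE 0.41, adjusted p = 0.00779). The change in Cyp26-E1-KO is set by few counts and is the least precise of those that passed there. Its lowest value, 0.0706 CPM, was that of replicate 2, the library that stood apart. Without that library Ndufa4l2 kept its call. Over the 148 tested genes within 10 Mb of Ndufa4l2 the median log2 fold change was -0.03 and 0.02.

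Signalling and stress targets of HIF fell in both groups. Vegfa was at 71.2, 69.1 and 72.8 CPM in WT, 38.2, 27.5 and 38.6 in Cyp26-E1-KO and 32.6, 31.6 and 29.7 in Cyp26-E2 (-1.03, SE 0.11, adjusted p = 1.1e-05, and -1.18, SE 0.11, adjusted p = 8.41e-06). Bnip3 was at 44.9, 42.5 and 46 CPM in WT, 18.8, 26.1 and 21.8 in Cyp26-E1-KO and 22.7, 25.5 and 19.8 in Cyp26-E2 (adjusted p = 3.33e-05 and 7.98e-05, SE 0.12 on the log2 scale each). Ddit4 was at 47.4, 48.8 and 52.4 CPM in WT, 27.9, 16.8 and 30.6 in Cyp26-E1-KO and 26, 24.2 and 26.2 in Cyp26-E2 (-0.98 and -0.96, SE 0.17 each). All mutant libraries of these genes lay below all WT libraries, and the lowest Vegfa and Ddit4 values in Cyp26-E1-KO were those of replicate 2. Ndrg1 was at 8.53, 10.3 and 8.64 CPM in WT, 4.72, 4.45 and 5.25 in Cyp26-E1-KO and 4.16, 4.39 and 4.04 in Cyp26-E2 (-0.93 and -1.12, SE 0.14 each). Egln1 was at 40.8, 40.8 and 38.9 CPM in WT, 23.8, 22.6 and 25.2 in Cyp26-E1-KO and 24.8, 23.3 and 28.7 in Cyp26-E2 (-0.75 and -0.65, SE 0.09 each). The second sensor, Egln3, fell by 0.31 and 0.32, each adjusted p 0.0116, and did not pass in Cyp26-E1-KO without WT replicate 3 (0.0563) or in Cyp26-E2 without WT replicate 2 (0.051), WT replicate 3 (0.0614), Cyp26-E2 replicate 1 (0.0604) or Cyp26-E2 replicate 3 (0.0533). Ankrd37, an ankyrin-repeat protein gene used as a hypoxia marker, fell in Cyp26-E1-KO, from 2.2 to 2.59 CPM to 0.812 to 1.16 (-1.17, SE 0.25, adjusted p = 0.00372), and was at 1.4 to 1.67 in Cyp26-E2 (-0.58). P4ha2 fell in Cyp26-E1-KO (-0.80, SE 0.13) and P4ha1 in Cyp26-E2 (-0.28, SE 0.07). The neighbours of P4ha1 had a median of 0.20, so that the difference from them was -0.48. The P4ha1 call ended without WT replicate 2 (adjusted p = 0.134), Cyp26-E2 replicate 1 (0.0796) or Cyp26-E2 replicate 3 (0.0665). Hif1a did not change past the test (0.05 and 0.00).

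Between the enhancer groups, 2 members were higher and 3 lower in Cyp26-E2 (median -0.10), where 2.02% of all genes were higher and 2.46% lower. Kdm3a was at 276, 283 and 273 CPM in WT, 213, 236 and 211 in Cyp26-E1-KO and 294, 320.2 and 300.3 in Cyp26-E2. It fell in Cyp26-E1-KO (-0.33, SE 0.07), stood at 0.14 in Cyp26-E2 without passing, and differed between the mutants (0.47, SE 0.07, adjusted p = 0.000978). Ndufa4l2 was the other member higher in Cyp26-E2. Slc2a1 (-0.30, adjusted p = 0.0224), Pfkm (-0.27, adjusted p = 0.0369) and Eno1 (-0.23, adjusted p = 0.049) were lower there. With total scaling 2 were higher and 1 lower. The Pfkm call ended without Cyp26-E1-KO replicate 1 (0.0704), Cyp26-E2 replicate 1 (0.136), replicate 2 (0.121) or replicate 3 (0.122), and the Slc2a1 call without Cyp26-E2 replicate 2 (0.121) or replicate 3 (0.13). Eno1 lost its call under each of these omissions and without Cyp26-E1-KO replicate 3, with adjusted p 0.0629 to 0.171. Without Cyp26-E1-KO replicate 2 the count was 3 higher and 11 lower, while 9.56% of all genes were called, so that the number of members that differ between the mutants rests on that library. Cyp26a1, which is on chromosome 19 with Pgam1 and Mxi1, differed strongly between the mutants (2.94, SE 0.18, higher in Cyp26-E2).

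Marker sums also differed between the groups. Embryonic stem cell markers summed to 3656 to 3777 CPM in WT, 2573 to 3649.6 in Cyp26-E1-KO and 3057 to 3247 in Cyp26-E2, with 4 of 10 lower in each mutant and 2 of 10 higher in Cyp26-E1-KO. Extraembryonic endoderm markers summed to 743 to 775, 876 to 946 and 970.3 to 987 CPM, with 5 of 11 higher and 3 lower in Cyp26-E1-KO and 8 of 11 higher in Cyp26-E2. Trophectoderm markers summed to 75.4 to 80.3, 113 to 116 and 81.4 to 94.6 CPM, with Elf5 at or under 10 counts in every library, and neuroectoderm markers to 76.3 to 76.8, 81.9 to 85.7 and 65.2 to 73.6. Fibroblast sums overlapped, at 249.5 to 257, 243 to 258 and 242 to 249 CPM. Among signs of growth and handling, proliferation genes summed to 4403 to 4475, 3949 to 4428 and 3949.6 to 4019 CPM, heat shock genes to 7227 to 7692, 6321 to 7564 and 5630 to 5997, immediate early genes to 174 to 179.9, 146 to 207 and 164 to 178, and mitochondrially encoded genes to 19474 to 20764, 18137 to 28468 and 17626 to 20292. No marker of the stem cell and endoderm lists was at or under 10 counts in every library. Their part in the falls of the glycolysis and hypoxia genes was not tested.

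**Figure D3:**
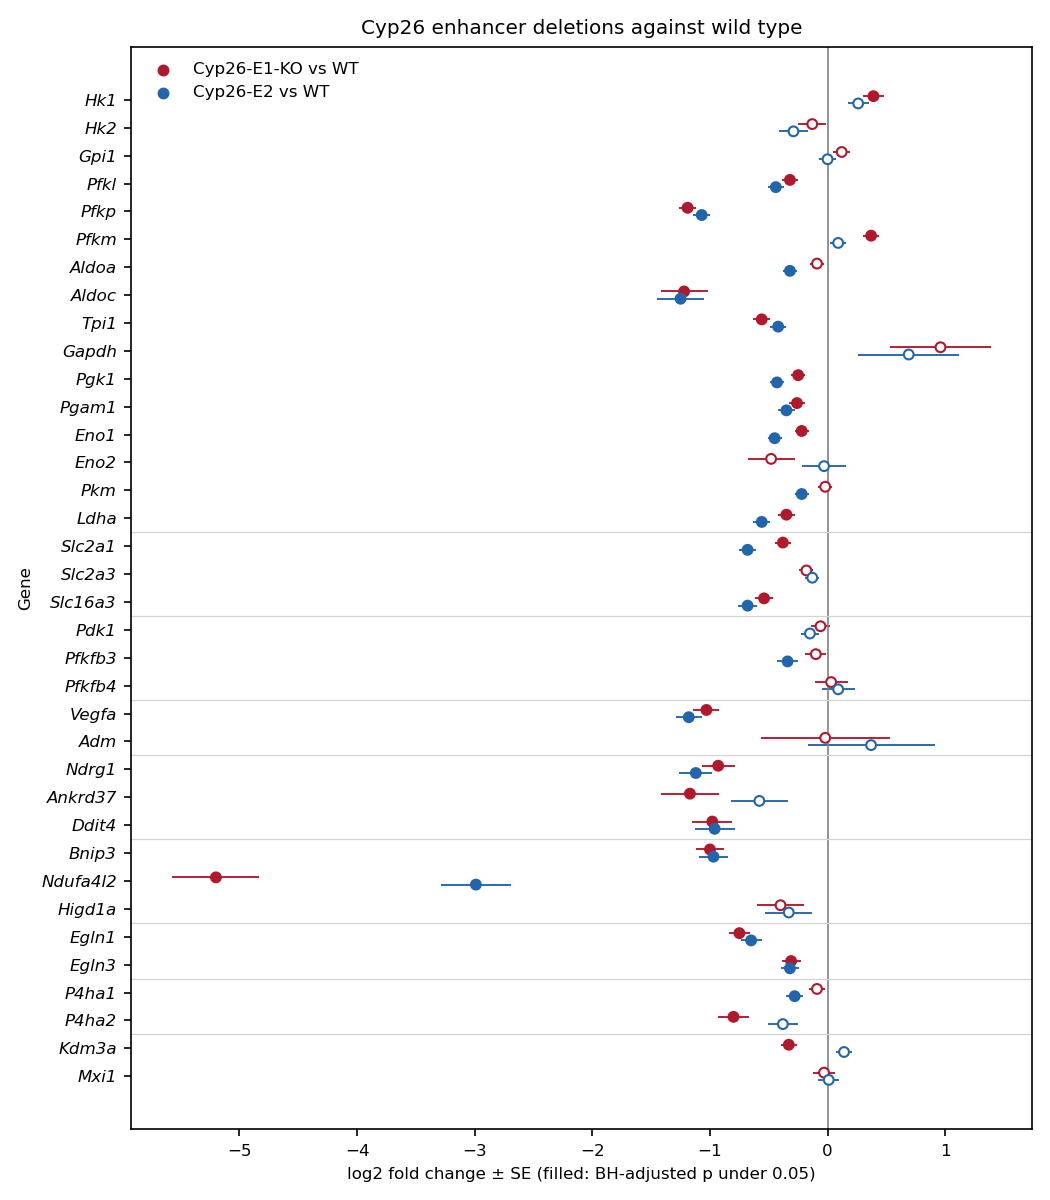
Log2 fold change with SE (x axis) of each member (y axis, grouped by role) in Cyp26-E1-KO and Cyp26-E2 against WT; filled points passed the test. Ndufa4l2 lies farthest left at -5.20 and -2.99, and nearly all filled points are below 0.

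Few members passed the test with receptor knockout, where each group had 2 libraries. The overexpression groups also had 2 libraries each, but their replicates lay closer together. Chi-square per degree of freedom between replicates was 7.36 to 13.2 in the knockout groups and 1.88 to 2.24 in the overexpression groups. The part of this spread in the numbers of calls was not tested. In Rara-KO, 0 of 35 members passed (median 0.05), where 0.645% of all genes were called. DESeq2 called 1 member, Ddit4, higher, and 1.68% of all genes. An unadjusted p under 0.05 was reached by 5 higher and 2 lower members. Here and below, no share over all genes is given for the unadjusted threshold. Such counts are therefore not comparable with the shares of genes called. Ddit4 was at 95.4 and 95 CPM against 48.7 and 58.8 in WT (0.82, adjusted p = 0.0611) and was called, 1 higher and 0 lower, with total scaling. Hk1 was at 70.9 and 71.4 CPM against 39.8 and 47.8 (0.70, adjusted p = 0.154). Both lie on chromosome 10, and the median log2 fold change of all tested genes within 10 Mb was 0.69 for Ddit4 and 0.67 for Hk1, so these values are close to those of their neighbours. Egln3 was at 4.49 and 3.93 CPM against 8.57 and 9.68 (-1.11, adjusted p = 0.116).

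In Rxra-KO, 3 members rose and 1 fell (median 0.04), where 1.28% of all genes rose and 1.2% fell. None of the 16 glycolytic enzymes passed. An unadjusted p under 0.05 was reached by 2 of them, and DESeq2 called 1, Gapdh. Bnip3 was at 13.5 and 10.6 CPM in WT and 24.5 and 25.9 in Rxra-KO (1.07, SE 0.21, adjusted p = 0.0194). Slc16a3 was at 31.5 and 38.6 CPM in WT and 67.7 and 71.8 in Rxra-KO (0.99, SE 0.20, adjusted p = 0.0238). Pdk1 was at 57.2 and 53.8 CPM in WT and 109 and 88.3 in Rxra-KO (0.83, SE 0.17, adjusted p = 0.0203), and the median of its 97 tested neighbours within 10 Mb was 0.20. The mitophagy receptor, the lactate exporter and the kinase of pyruvate dehydrogenase were thus each higher in both Rxra-KO libraries than in both WT libraries. Ndufa4l2 was at 6.08 and 8.52 CPM in WT and 2.86 and 1.91 in Rxra-KO (-1.61, SE 0.39, adjusted p = 0.0493). With DESeq2's size factors it did not pass and the count was 3 higher and 0 lower. No call was kept when 1 of the 2 WT libraries was left out, and most calls over all genes were lost as well. The folds were of like size. Without WT replicate 1 and without WT replicate 2, the log2 fold changes were 1.25 and 0.90 for Bnip3 and 0.86 and 1.14 for Slc16a3. They were 0.88 and 0.78 for Pdk1, and -1.83 and -1.35 for Ndufa4l2. Without Rxra-KO replicate 1, Bnip3 kept its call, and Slc16a3 (1.04), Pdk1 (0.67) and Ndufa4l2 (-1.93) did not. Without Rxra-KO replicate 2, Pdk1 kept its call, and Bnip3 (1.04), Slc16a3 (0.96) and Ndufa4l2 (-1.34) did not.

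In RARX-DKO, 1 member rose and 1 fell (median 0.03), where 1.05% of all genes rose and 1.19% fell. Ddit4 was at 102 and 104 CPM against 48.7 and 58.8 in WT (0.94, SE 0.18, adjusted p = 0.0162), and the median of its 92 tested neighbours within 10 Mb was 0.73. Slc2a1 was at 284 and 329 CPM against 471 and 503 (-0.67, SE 0.14, adjusted p = 0.0243), with a neighbourhood median of -0.04. Groups did not overlap for either gene. Neither call was kept without WT replicate 1 (log2 fold change 0.82 for Ddit4 and -0.70 for Slc2a1) or WT replicate 2 (1.08 and -0.61). Most calls over all genes were lost there as well. The Slc2a1 call also ended without RARX-DKO replicate 1 (-0.56). DESeq2 called 4 higher and 1 lower, adding Gapdh, Pfkp and Slc16a3, where it called 4.04% of all genes.

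Direct comparison of the knockouts set Rxra-KO apart from Rara-KO at a few hypoxia genes. Egln3 was at 15.1 and 21.1 CPM in Rxra-KO and 4.49 and 3.93 in Rara-KO (SE 0.29 on the log2 scale, adjusted p = 0.00239), 4.29-fold higher, with WT, at 8.57 and 9.68, in between and no overlap. The neighbours within 10 Mb had a median of -0.05, and Egln3 kept its call whichever of these libraries was left out. In all, 3 members were higher and 3 lower in Rxra-KO (median -0.02), where 2.19% of all genes were higher and 3.19% lower. Besides Egln3, Slc16a3 (0.87, adjusted p = 0.0292) and Pdk1 (0.74, adjusted p = 0.0229) were higher. Eno2, at 9.24 and 11.6 CPM against 20.1 and 18.8 (-0.90, adjusted p = 0.0333), Vegfa, at 84.5 and 116 against 157 and 158 (-0.65, adjusted p = 0.0402), and Ndufa4l2 (-1.66, adjusted p = 0.0297) were lower. With 1 library fewer, Eno2 and Slc16a3 lost their calls under each of the 4 omissions (adjusted p 0.0586 to 0.164 and 0.069 to 0.147). Pdk1 and Vegfa lost them under 3, kept without Rxra-KO replicate 2 (otherwise 0.0611 to 0.23 and 0.124 to 0.223), and Ndufa4l2 under 3, kept without Rara-KO replicate 1 (otherwise 0.0504 to 0.256).

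RARX-DKO against Rxra-KO had 0 members higher and 1 lower (median 0.00), where 2.01% of all genes were higher and 1.48% lower. The member was Egln3, at 7.84 and 7.07 CPM in RARX-DKO and 15.1 and 21.1 in Rxra-KO (-1.28, SE 0.28, adjusted p = 0.0255). It did not pass without Rxra-KO replicate 2 (0.13), RARX-DKO replicate 1 (0.0967) or RARX-DKO replicate 2 (0.0663). DESeq2 called 2 higher, Eno2 and Pfkp, and an unadjusted p under 0.05 was reached by 2 higher members. With total scaling 2 were higher and 1 lower, and with DESeq2's size factors 1 and 1. RARX-DKO against Rara-KO gave 0 calls by edgeR and 0 by DESeq2 (median -0.02), where 0.0122% of all genes were called. At the looser threshold of an unadjusted p under 0.05, for which the share over all genes is not given, 3 members were higher and 2 lower. Hif1a stayed within 0.05 of WT on the log2 scale in the knockouts and passed in none of these comparisons.

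Markers also moved with the knockouts. Extraembryonic endoderm markers summed to 395 to 435 CPM in WT, 261 to 329 in Rara-KO, 526 to 571 in Rxra-KO and 236 to 265 in RARX-DKO, with 8 of 11 higher in Rxra-KO than in Rara-KO and 9 of 11 lower in RARX-DKO than in Rxra-KO. Those of embryonic stem cells summed to 5741 to 5861 CPM in WT, 6882 to 8377 in Rara-KO, 6783 to 6849 in Rxra-KO and 7389 to 7876 in RARX-DKO. No marker of either list was at or under 10 counts in every library. Egln3 was highest in Rxra-KO and lowest in Rara-KO. The endoderm sum was highest in Rxra-KO, and its lowest ranges, those of Rara-KO and RARX-DKO, overlapped. The part of these cells in the results was not tested.

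**Figure D4:**
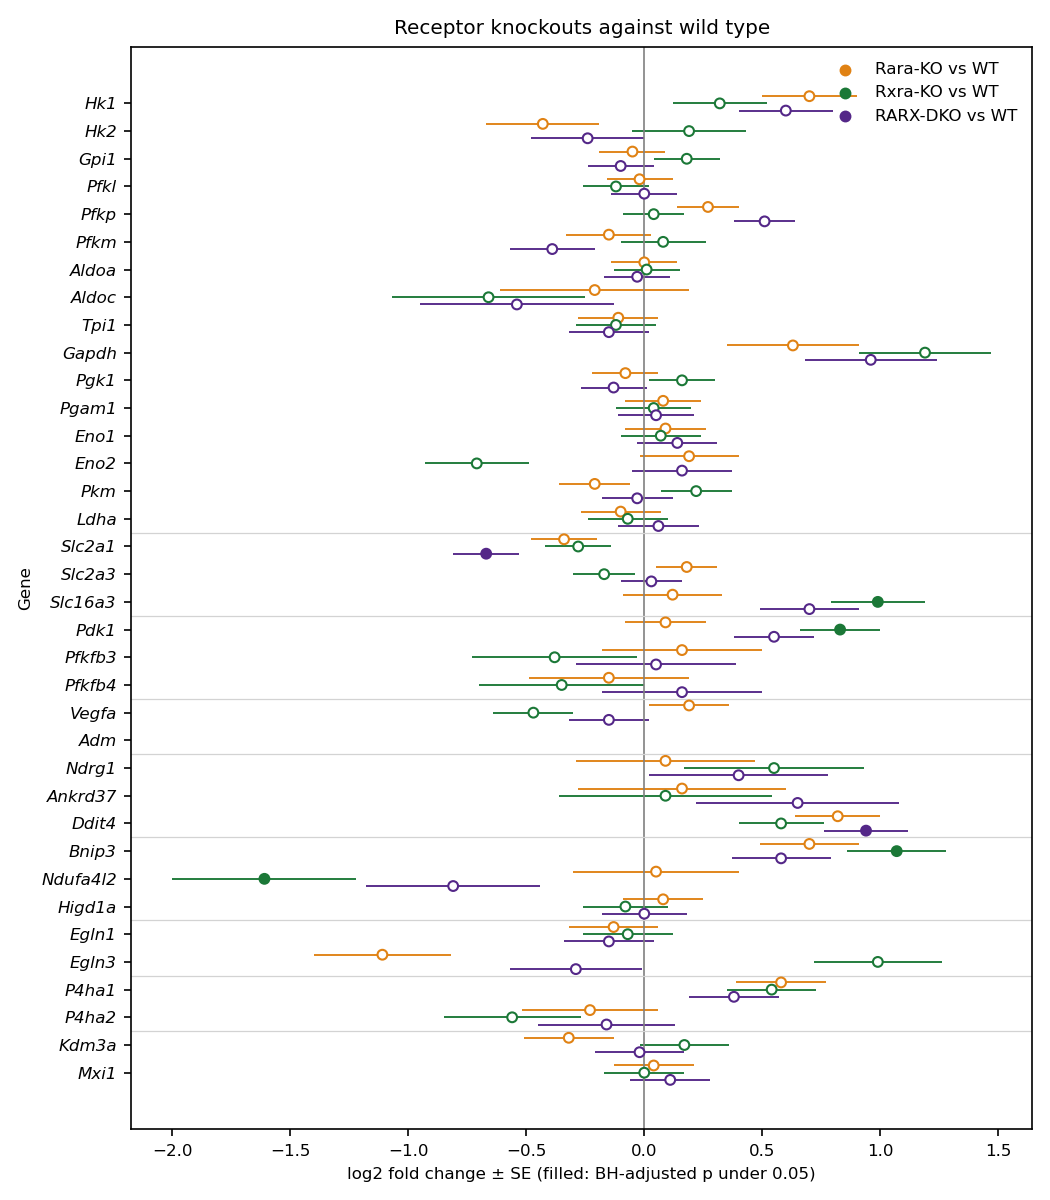
Log2 fold change with SE (x axis) of each member (y axis, grouped by role) in Rara-KO, Rxra-KO and RARX-DKO against WT; filled points passed the test. Few points are filled: Bnip3, Slc16a3, Pdk1 and Ndufa4l2 in Rxra-KO, and Ddit4 and Slc2a1 in RARX-DKO.

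**Figure D5:**
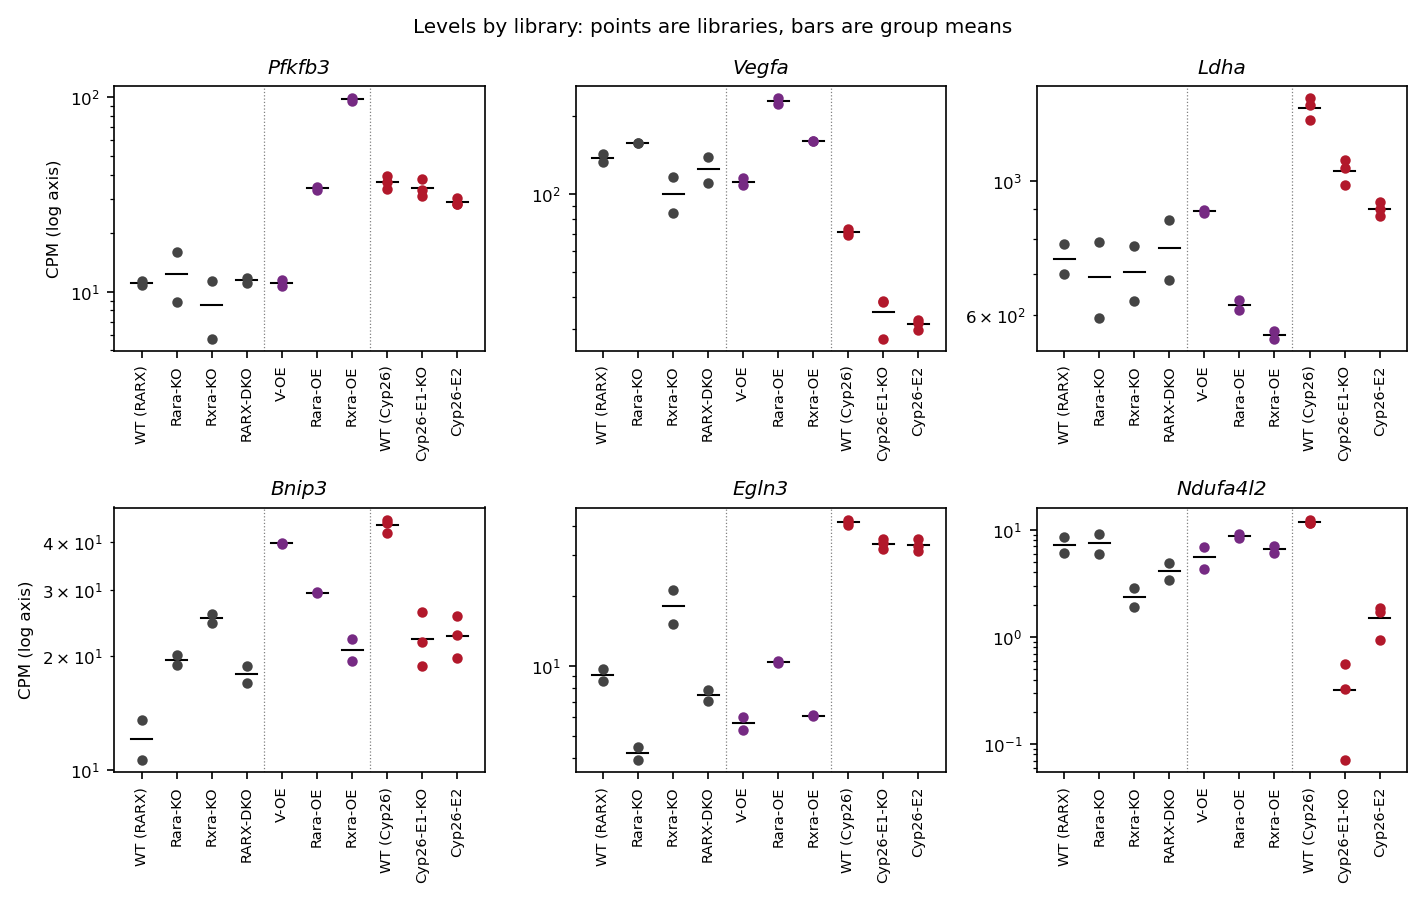
Level of 6 members in every library (points, CPM on a log axis) with group means (bars), by table. Pfkfb3 steps up from V-OE to Rara-OE to Rxra-OE, Vegfa and Ldha drop from WT to both enhancer groups, and Ndufa4l2 is under 1 CPM in each Cyp26-E1-KO library.

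The members called in each table were set side by side. The tables share no libraries, but the members are the same genes, so these counts are descriptions. Over all members, 20 of 36 fell in Cyp26-E1-KO, and of the 35 tested 10 fell in Rara-OE and 17 in Rxra-OE. Overlaps of 50% to 60% with those 20 are thus near the share over all members. The 3 members that rose in Rxra-KO (Bnip3, Pdk1 and Slc16a3) were 100% of that list, and all were among the 10 that fell in Rara-OE (30% of them) and the 17 that fell in Rxra-OE (17.6%). Of the same 3, Bnip3 and Slc16a3 (66.7%) were among the 20 that fell in Cyp26-E1-KO (10%). Of the 16 that rose in Rara-OE, 8 (50%) were among the 20 that fell in Cyp26-E1-KO (40%): Ddit4, Egln1, Egln3, Ndufa4l2, P4ha2, Pfkp, Tpi1 and Vegfa. Of the 17 that fell in Rxra-OE, 10 (58.8%) were among those 20 (50%): Bnip3, Eno1, Kdm3a, Ldha, Ndrg1, Pfkl, Pfkp, Pgam1, Pgk1 and Slc16a3. Both kinds of overlap occurred with each receptor: of the 10 that fell in Rara-OE, 6 (60%) were among the 20 (30%), and of the 12 that rose in Rxra-OE, 6 (50%) were among the 20 (30%). Vegfa, Ddit4, Egln1 and Tpi1 thus had opposite directions with overexpression and in the enhancer groups, while Ldha, Eno1, Slc16a3 and Bnip3 fell in both. Slc16a3 was called in 7 of the 12 comparisons, the most of any member, and Adm and Gapdh in 0. DESeq2 did call Gapdh, higher in Rxra-KO and RARX-DKO and lower in Rara-OE and Rxra-OE.

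Other genes of the same pathways, listed apart from the members, were counted the same way. Of 29 further glycolysis and carbohydrate genes, 11 rose and 5 fell in Rxra-OE (26 tested, median 0.32), where 30.9% of all genes rose and 29.3% fell. Pgam2, the muscle phosphoglycerate mutase, rose from 5.29 ± 1.57 CPM (SD, n = 2) in V-OE to 57.5 ± 3.08 in Rara-OE and 174 ± 7.41 in Rxra-OE (3.46 and 5.06 on the log2 scale). It was lower in Rara-KO (-1.89, adjusted p = 0.022), RARX-DKO (-2.53, adjusted p = 0.00151) and Cyp26-E1-KO (-1.16, adjusted p = 0.000112). Pdk2, a relative of Pdk1, rose in Rara-OE (1.03) and Rxra-OE (2.58), while Pdk1 fell in both. In Rara-OE 5 of the 26 rose and 5 fell (14.7% and 13.9% of all genes), in Cyp26-E1-KO 3 rose and 8 fell (13.1% and 12.1% of all genes), and in Cyp26-E2 3 rose and 5 fell (9.28% and 8.2% of all genes), with Pgm1 (phosphoglucomutase) at -1.04 and -1.18 in the enhancer groups.

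Of 38 further HIF pathway and target genes, 15 rose and 14 fell in Rxra-OE (36 tested), and the shares over all genes are those just given for each comparison. Hilpda, a lipid droplet protein induced by HIF, rose from 9.69 ± 0.72 CPM (SD, n = 2) to 120 ± 0.224 (3.62, SE 0.10), and Ppp1r3c, a glycogen-targeting subunit, from 1 to 6 counts to 69 to 91 (4.29, SE 0.44). Lox, a collagen crosslinker, had 0 counts in V-OE and Rara-OE and 20 to 35 in Rxra-OE. In Rara-OE 7 rose and 7 fell, and Loxl2 (1.11) was among the largest rises. In Cyp26-E1-KO 5 rose and 12 fell and in Cyp26-E2 4 rose and 8 fell, with Stc2, a secreted stress hormone, falling by 1.53 and 1.74 on the log2 scale. Tfrc, the transferrin receptor, rose in Cyp26-E1-KO (1.44, SE 0.11), against the trend of the list. In Rxra-KO, Epas1, the gene of HIF-2α, passed (0.97, adjusted p = 0.0493), and it was 1.37 higher on the log2 scale than in Rara-KO. Named after its values were seen, it fell in Rxra-OE (-2.71, SE 0.11). Its mean was 59.6 CPM in V-OE, 38.6 in Rara-OE and 8.97 in Rxra-OE. Among the enhancer groups Epas1 was higher in both mutants, with means of 65.9 CPM in WT, 132 in Cyp26-E1-KO and 98.1 in Cyp26-E2. In Rara-KO and RARX-DKO 0 of the 34 tested passed by edgeR, DESeq2 called 0 and 1, and 4 and 3 had an unadjusted p under 0.05. Of 36 genes of oxidative phosphorylation, 35 were tested. In Rxra-OE 5 rose and 10 fell (median 0.00), where 30.9% of all genes rose and 29.3% fell. The falls were thus near the share over all genes and the rises fewer. Cycs (cytochrome c) was lowest among those named, at -0.82. In Rara-OE 2 rose and 4 fell (14.7% and 13.9% of all genes). In Cyp26-E1-KO 0 rose and 4 fell (13.1% and 12.1% of all genes), and DESeq2 and an unadjusted p under 0.05 also gave 0 higher. In Cyp26-E2 1 fell, where 8.2% of all genes fell. In each knockout against WT 0 passed by edgeR or DESeq2, with at most 1 in either direction at an unadjusted p under 0.05.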

How the data were processed

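Raw read counts per gene were deposited by the authors for 23 RNA-seq libraries in 3 tables. The submitters' processing notes name mm10, HISAT2 2.1.0, HTSeq 0.9.1 and DESeq2 1.18.1, with no role or order, and strand is not given in the sources used here. Columns were matched to samples by title, and those of the enhancer table through short codes, a match that is unsure. The 52636 identifiers of that table were matched to symbols for 52403. Each table had 1 fit over its groups, made in edgeR 4.0.16 (TMM scaling, filterByExpr with a minimum count of 10, robust quasi-likelihood test), which tested 16445, 16914 and 18768 genes of the knockout, overexpression and enhancer tables. Adjusted p is Benjamini-Hochberg over all genes tested, threshold 0.05. SE was taken as log2 fold change, without sign, divided by the root of F, and CPM use TMM-scaled library sizes. Comparisons were mutant against control and mutant against mutant. Alternatives were DESeq2 1.42.0, 2 other scalings, no filter, fits of 2 groups, a replicate block, each library left out, and members off chromosomes with shifted neighbours. Any member could be named, with values per library for up to 8 passing members per direction, and up to 3 passing genes of each other list. Members and lists were chosen with earlier results of these data known. Tests were tried on simulated data. Promoter sequences are from RefSeq. The 4C-seq and ChIP-seq samples were not analysed here.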

Additional observations from a re-analysis of the deposited data

How the results depend on the processing

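Counts of members past the threshold depended on the settings mainly in the knockout table, where leaving out 1 of 2 libraries leaves a lone sample that is assumed to vary like the other groups. The share of all genes called moved as well. In Rara-KO it was 0.645% in the main fit and 0.754% with total scaling. There it was 1.85% with no filter, 3.63% with only the compared groups and 1.68% with DESeq2. With no filter it was 3.63% in Rxra-KO and 3.29% in RARX-DKO. In the main fit 1.28% rose and 1.2% fell in Rxra-KO, and 1.05% rose and 1.19% fell in RARX-DKO. Leaving out either WT library lowered the share of all genes called in each knockout against WT. That share was also lower in Rxra-KO against Rara-KO whichever library was left out. In RARX-DKO against WT and against Rxra-KO it was higher only without RARX-DKO replicate 2. In Rara-KO against WT the count of 0 became 1 with total scaling, 4 with no filter, 3 with only the compared groups in the fit and 1 with DESeq2, and stayed at 0 when libraries were left out. In Rxra-KO against WT the 4 became 7 with no filter and 0 to 2 with a library left out. In RARX-DKO against WT the 2 became 7 with no filter, 5 with DESeq2 and 0 to 4 with a library left out. In Rxra-KO against Rara-KO the 6 became 3 with only these groups and 1 to 3 with a library left out. In RARX-DKO against Rxra-KO the 1 became 3 with total scaling, 2 with DESeq2's size factors, 3 with no filter, 0 with only these groups, 3 with DESeq2 and 0 to 1 with a library left out. RARX-DKO against Rara-KO gave 0 members throughout. With a library of the overexpression table left out, Rxra-OE kept its calls, and fewer members were called in Rara-OE and in Rxra-OE against Rara-OE. The share of all genes called was lower in each of these comparisons too. With a library of the enhancer table left out, Cyp26-E2 kept 17 to 19 of 21 as counts. Cyp26-E1-KO then had 18 to 26 (22 in full), and Cyp26-E2 against Cyp26-E1-KO had 2 to 14 (5 in full). That last count was 3 with total scaling, 1 with only these groups and 10 with DESeq2, where 4.47%, 1.89% and 8.52% of all genes were called. With a library left out, 17.6 to 32.1% of all genes were called in Cyp26-E1-KO, 10.2 to 11.5% in Cyp26-E2 and 1.6 to 9.56% between them. With only the compared groups the share was 3.84% in Rxra-KO against Rara-KO and 0.194% in RARX-DKO against Rxra-KO. In the latter it was 3.57% with total scaling, 3.53% with DESeq2's size factors, 4.58% with no filter and 5.13% with DESeq2. Counting only the members off chromosomes 2, 6, 8, 10, 16 and Y (20 tested in the knockout and overexpression tables, 21 in the enhancer table) leaves fewer members by construction. Called were 0 in Rara-KO, 2 in Rxra-KO, 1 in RARX-DKO, 14 in Rara-OE, 17 in Rxra-OE, 14 in Cyp26-E1-KO and 14 in Cyp26-E2. Between mutants, 3 were called in Rxra-KO against Rara-KO, 0 in RARX-DKO against Rara-KO and 1 in RARX-DKO against Rxra-KO. There were 19 in Rxra-OE against Rara-OE and 3 in Cyp26-E2 against Cyp26-E1-KO. The share of all genes called off these chromosomes is not given here. Subtracting the median of genes within 10 Mb moved 12 of 29 called fold changes by more than their SE in Rxra-OE, 5 of 26 in Rara-OE, 6 of 28 in Rxra-OE against Rara-OE, 5 of 22 in Cyp26-E1-KO, 5 of 21 in Cyp26-E2 and 1 each in Rxra-KO, RARX-DKO and Rxra-KO against Rara-KO. No called fold change of a member reversed its sign under the alternatives run. Beyond these constructions the cause of the differences was not tested. Libraries with the same replicate number did not deviate together (correlations -0.21 to 0.12, -0.01 to 0.01 and -0.06 to 0.11 in the knockout, overexpression and enhancer tables), so the numbers do not pair samples, and no pairing was used. With a replicate block the counts were 4 in Rxra-KO, 2 in RARX-DKO, 5 in Rxra-KO against Rara-KO, 26 in Rara-OE, 29 in Rxra-OE, 24 in Cyp26-E1-KO, 21 in Cyp26-E2 and 4 in Cyp26-E2 against Cyp26-E1-KO. In the same order the block called 1.91%, 1.8%, 4.48%, 27%, 59.2%, 25.4%, 17.5% and 4.59% of all genes. The members called were not all the same: Rxra-KO lost Ndufa4l2 and gained Gapdh (4 higher, 0 lower), Cyp26-E2 lost Pkm and gained P4ha2, Rxra-KO against Rara-KO lost Vegfa, Rxra-OE against Rara-OE had 27 without Gpi1, Cyp26-E1-KO gained Eno2 and Higd1a, and Cyp26-E2 against Cyp26-E1-KO lost Pfkm and Eno1 and gained P4ha2. Depth limits Adm, Ankrd37, Aldoc, Ndrg1 and, in the mutants, Ndufa4l2, which have few counts.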
